A study of Homo sapiens with 35 samples.

Results

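The structural proteins of the neuronal cytoskeleton were followed at the RNA level in a neuroblastoma line exposed to a retinoid, a histone deacetylase inhibitor or both. The set comprised 10 genes: the neurofilament subunits NEFL, NEFM and NEFH, the related filament proteins INA, PRPH and NES, the microtubule-associated proteins MAP1B, MAP2 and MAPT, and the growth cone protein GAP43. Members were all probe sets of the deposited table annotated to exactly 1 of these symbols, which gave 18 probe sets out of 22930. They covered 9 of the 10 genes. NES was not analysed here, because no probe set was annotated to it alone.

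BE(2)-C is an established clonal human neuroblastoma line, and all 12 groups were this line. Cells received the vehicle dimethyl sulfoxide (DMSO), ATRA (all-trans retinoic acid) at 5 uM, VPA (valproic acid, an inhibitor of histone deacetylases) at 1 mM, or both agents together at these doses (called the combination here), and RNA was taken after 6, 24 or 72 h. Each of the 12 groups had 3 arrays, except DMSO at 72 h with 2, so the data comprised 35 arrays. The labels speak of triplicate treatment and say nothing of separate cultures, so the p-values measure the spread between these samples, which may be technical.

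Neurofilaments are built from light, medium and heavy chains that coassemble with INA or PRPH, and they set the calibre of axons. PRPH is typical of peripheral and sympathetic neurons, and INA of early central neurons, while the heavy chain joins the filament late in maturation. MAP1B, MAP2 and tau (the product of MAPT) bind microtubules: MAP1B prevails in growing axons, MAP2 in dendrites and tau in axons. GAP43 lies under the membrane of the growth cone and is a common marker of neurite outgrowth. In a neuroblastoma culture these genes are read as markers of a neuronal state, and retinoids are known to induce neurites in such lines.

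Values are array intensities on a linear scale. They carry no detection calls, and each array's lower quartile was at 20.8 to 23.6, far below the brightest probe set of each of the 9 genes. Because probe sets differ in affinity, levels were compared only within a probe set. In RNA from whole cultures, fewer cells of a type and less RNA per cell cannot be told apart. Markers of the sympathetic lineage were checked first: 7 of 8 were measured, PHOX2A ran from 1198 to 3100 and MYCN from 4674 to 7533, whereas HAND2 stayed between 22.7 and 43.6, close to the lower quartile. The sum of the 7 at 72 h was 14640 to 14777 in DMSO, 10769 to 11323 in ATRA, 14778 to 16327 in VPA and 12112 to 12596 in the combination. Against DMSO at that time 1 rose and 3 fell with ATRA, 1 rose with VPA, and 1 rose and 4 fell with the combination, and the part of this shift in the member results was not tested. The 4 of 6 Schwann cell markers measured summed to between 91.6 and 123 in every array, and the 4 haematopoietic markers to between 86.9 and 143. The sum of 6 mesenchymal markers at 72 h was 582 to 597 in DMSO, 558 to 591 in ATRA, 1729 to 1841 in VPA and 1199 to 1299 in the combination, led by lumican (LUM), and 1 rose and 1 fell with ATRA, 4 rose with VPA and 5 rose in the combination. At 24 h the sum was 641 to 675 in DMSO, 784 to 839 in ATRA, 1020 to 1057 in VPA and 1097 to 1284 in the combination, so every treated group lay above DMSO. At that time 3 of the 6 rose and 1 fell with ATRA, 4 rose with VPA and 5 with the combination. The part of these markers in the results at 24 and 72 h was not tested. DMSO replicate 1 at 24 h stood apart, with a median intensity of 43.6 where the other arrays lay between 53.1 and 58.9, and values at 24 h are therefore also given without it where it matters.

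NEFH, the heavy neurofilament chain, was the member with the widest range: the group means of its brightest probe set, 33767_at, spanned 1.57 on the log2 scale. At 72 h the DMSO arrays read 1079 and 1152, the ATRA arrays 451, 434 and 522, and the VPA arrays 729, 767 and 857. The combination arrays read 396, 413 and 437. No treated array overlapped the DMSO arrays, and the VPA arrays lay between those of DMSO and those of ATRA. Against DMSO, NEFH fell by 1.25 ± 0.13 (SE) on the log2 scale with ATRA, a 2.38-fold difference (limma, Benjamini-Hochberg adjusted p = 9.05e-09). It fell by 1.42 ± 0.13 with the combination, or 2.68-fold (adjusted p = 4.01e-10). With VPA it fell by 0.51 ± 0.13 (adjusted p = 0.0113), a call that was lost without DMSO replicate 1 or 2 or VPA replicate 1 (changes of -0.56 to -0.46, adjusted p between 0.0586 and 0.166). ATRA lay below VPA by 0.74 ± 0.11 on the log2 scale in the direct comparison (adjusted p = 8.55e-06), and the combination below VPA by 0.91 ± 0.11 (adjusted p = 2.87e-07). The combination minus ATRA was -0.17, with a 95% interval from -0.41 to 0.06 (adjusted p = 0.309).

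The second NEFH probe set, 204412_s_at, was dimmer and moved the same way with ATRA and the combination. At 72 h it read 506 and 461 in DMSO, 252, 295 and 252 in ATRA, and 302, 209 and 239 in the combination. It fell by 0.86 ± 0.16 on the log2 scale with ATRA (limma, adjusted p = 0.000108 over all probe sets) and by 0.96 ± 0.16 with the combination (adjusted p = 1.69e-05). With VPA it read 406, 440 and 394, and its change of -0.23 did not pass the test (adjusted p = 0.569).

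By 33767_at the combination mean lay above that of DMSO at 6 h (730 against 679) and below it at 24 h (843 against 1127). The ATRA mean lay below DMSO at both times (638 against 679, then 797 against 1127), while DMSO itself rose. In neither treatment did the mean level of 33767_at fall between 6 and 24 h. It went from 638 to 797 in ATRA and from 730 to 843 in the combination. At 6 h the DMSO arrays read 645, 732 and 661 by this probe set, and every treated group overlapped them, with no treatment past the test. By 204412_s_at the DMSO arrays at 6 h ranged from 435 to 460. The ATRA arrays (374 to 390) and the combination arrays (388 to 410) lay wholly below them, without a call. In DMSO the level of 33767_at then rose to 959, 1156 and 1266 at 24 h and stayed at 1079 and 1152 at 72 h, which is 0.72 ± 0.11 and 0.72 ± 0.13 on the log2 scale above 6 h (limma, adjusted p = 0.000167 and 0.000357). The second probe set gave only 0.16 and 0.11 over the same spans and did not pass (adjusted p = 0.479 and 0.731), and the mean of both gave 0.44 (adjusted p = 0.00332) and 0.41 (adjusted p = 0.0154). Without DMSO replicate 1 at 24 h, the second probe set rose by 0.42 from 6 to 24 h and passed (adjusted p = 0.0268). With only the arrays compared, the change from 6 to 24 h no longer passed (adjusted p = 0.05). At 24 h the ATRA arrays read 763, 875 and 753, below every DMSO array, and the VPA arrays 1357, 1325 and 1042, within and above the DMSO range. The change at 24 h was -0.49 ± 0.11 with ATRA (adjusted p = 0.00226). With the combination it was -0.42 ± 0.11 (adjusted p = 0.00856), although its arrays (977, 774 and 778) overlapped those of DMSO. The call for the combination was lost without DMSO replicate 3 or combination replicate 2 (-0.33 and -0.36, adjusted p = 0.0566 and 0.0524). With only the arrays compared, neither treatment passed at 24 h (adjusted p = 0.0734 for ATRA and 0.156 for the combination). The second probe set gave -0.31 with ATRA and -0.39 with the combination and did not pass (adjusted p = 0.145 and 0.0546). Without DMSO replicate 1 at 24 h it gave -0.57 and -0.65, and both passed (adjusted p = 0.00082 and 0.000144). By 33767_at the ATRA and combination arrays at 72 h were also below every DMSO array at 6 h. That comparison across times was not tested, and no sample from before the treatment was measured. The test of the change at 72 h minus that at 6 h gave -1.16 ± 0.17 for ATRA (adjusted p = 1.38e-05) and -1.52 ± 0.17 for the combination (adjusted p = 1.28e-07).

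**Figure D1:**
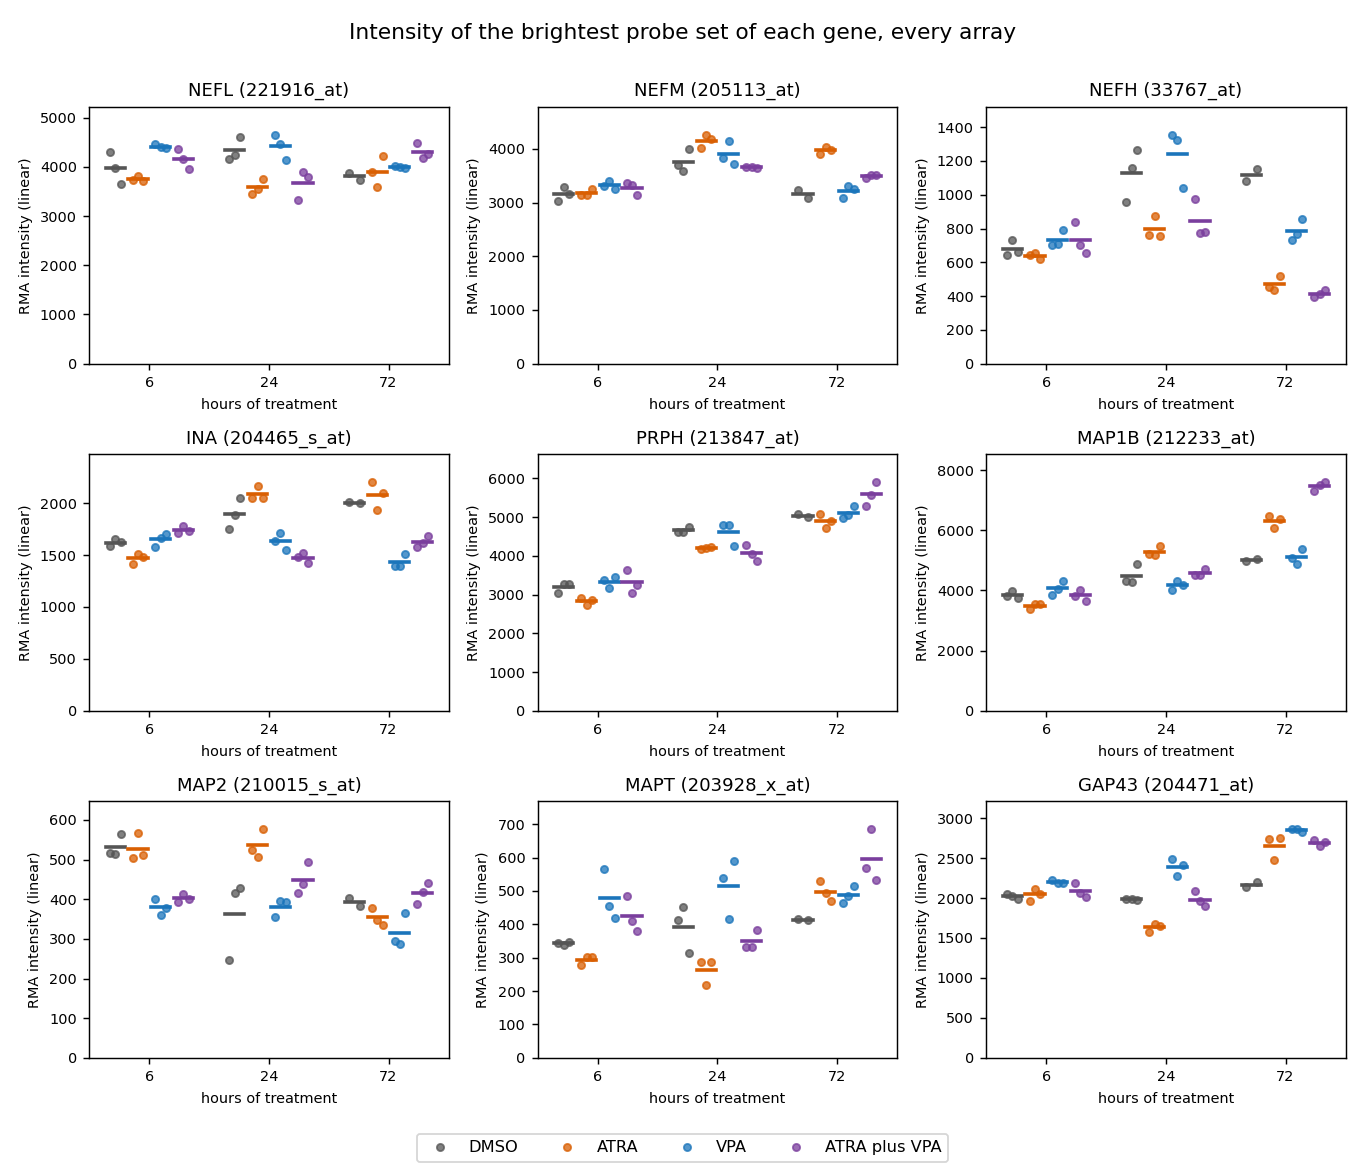
Intensity (linear RMA values, vertical axis from 0) of the brightest probe set of each of the 9 genes on every array, by hours of treatment; each point is 1 array, each bar the group mean, and colours give the treatment. NEFH in the ATRA and combination groups lies at 396 to 522 at 72 h against 1079 and 1152 in DMSO, while MAP1B reaches 7308 to 7617 in the combination.

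At 72 h the light and medium chains did not follow the heavy chain. NEFL read 3873 and 3742 in DMSO at 72 h by its brightest probe set, 221916_at, and 3892, 3591 and 4214 with ATRA, so that the groups overlapped. Over all groups its means spanned 0.30 on the log2 scale, the narrowest range of the 9 genes. At 24 h the 3 ATRA arrays (3441, 3553 and 3755) lay below the 3 DMSO arrays (4159, 4247 and 4605), a fall of 0.28 ± 0.07 on the log2 scale (limma, adjusted p = 0.00844). The combination gave -0.24 ± 0.07 at that time (adjusted p = 0.0192), a call lost without DMSO replicate 3 or combination replicate 1 (-0.20 and -0.17, adjusted p = 0.0855 and 0.139). The mean of the 3 NEFL probe sets changed by only -0.11 with ATRA at 24 h (adjusted p = 0.268) and by -0.14 with the combination (adjusted p = 0.112), and neither passed the test. At 72 h all 3 probe sets were higher in the combination than in DMSO. The brightest, 221916_at, gave 0.18 and did not pass (limma, adjusted p = 0.111), but passed after a second quantile normalization (0.24, adjusted p = 0.0131). The mean of the 3 probe sets gave 0.23 (adjusted p = 0.00996). Of the other probe sets, 221805_at rose by 0.27 ± 0.09 (adjusted p = 0.0297) and 221801_x_at by 0.25 ± 0.09 (adjusted p = 0.0348). Both calls were lost without either DMSO array or without combination replicate 1 or 3 (adjusted p from 0.0518 to 0.227), and that of 221801_x_at also with only the arrays compared (adjusted p = 0.0708). The rise of 221805_at was not limited to the combination: with VPA alone it was 0.31 (mean 2121 against 1711, adjusted p = 0.0477). That call was lost with only the arrays compared (adjusted p = 0.0775) or with the replicate numbers as a block (adjusted p = 0.0725). The brightest probe set did not pass with VPA at 72 h.

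NEFM, the medium chain, has 1 probe set, 205113_at. At 72 h the DMSO arrays read 3241 and 3078, the ATRA arrays 3906, 4043 and 3988, the VPA arrays 3083, 3301 and 3249, and the combination arrays 3465, 3512 and 3507. All ATRA arrays were above all others at that time. NEFM rose 1.26-fold with ATRA, or 0.33 ± 0.07 on the log2 scale (limma, adjusted p = 0.000292). The combination was above every DMSO array, at 0.15 ± 0.07, but did not pass the test (adjusted p = 0.105). It was lower than ATRA alone by 0.19 ± 0.06 (adjusted p = 0.026). That difference did not pass without ATRA replicate 2 or without any 1 of the 3 combination arrays (adjusted p from 0.0562 to 0.0746), with the 3′/5′ signal ratio (described below) added to the fit (adjusted p = 0.104) or with only the arrays compared (adjusted p = 0.199). In ATRA at 72 h, then, the heavy chain was 2.38-fold lower and the medium chain 1.26-fold higher than in DMSO of the same time, while the interval for the light chain was -0.14 to 0.20 on the log2 scale.

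INA, which encodes alpha-internexin, separated the treatments that held VPA from those that did not. The RefSeq promoter window of INA is shown because this gene fell in the VPA and the combination groups and not in ATRA. The window is the 250 bases before the annotated start, on the plus strand at chr10:103276888-103277137 of GRCh38.p14, 5′ to 3′, and capitals mark matches to any of 4 motifs on either strand: TATAAA (the TATA box), GGGCGG (the core of the GC box bound by SP1), GAGAGA (a purine repeat) and AGGTCA (the nuclear receptor half-site).
INA: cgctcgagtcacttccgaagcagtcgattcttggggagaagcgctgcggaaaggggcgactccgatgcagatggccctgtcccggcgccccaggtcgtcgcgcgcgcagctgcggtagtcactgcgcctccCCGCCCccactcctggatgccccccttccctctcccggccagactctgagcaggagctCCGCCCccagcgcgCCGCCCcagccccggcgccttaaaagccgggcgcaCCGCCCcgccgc
It held 4 GGGCGG matches, no TATAAA and no AGGTCA, and 72.8% of its bases were G or C. Of 35116 RefSeq windows of this length, 42.6% held GGGCGG, 10.7% TATAAA, 18.4% GAGAGA and 12.1% AGGTCA. Matches are descriptions of the letters and not of binding. Windows were found for 6 of the 10 genes listed.

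At 72 h INA (204465_s_at) read 2008 and 2002 in DMSO, 2208, 1933 and 2097 in ATRA, 1398, 1395 and 1509 in VPA, and 1580, 1614 and 1683 in the combination. The VPA arrays were the lowest, the combination arrays next, and both groups lay wholly below DMSO and ATRA. INA fell by 0.48 ± 0.075 on the log2 scale with VPA, or 1.40-fold (limma, adjusted p = 5.42e-05), and by 0.30 ± 0.075 with the combination (adjusted p = 0.00198). The combination lay above VPA by 0.18 ± 0.07 (adjusted p = 0.0462), a call lost without VPA replicate 1 or 2 or any 1 of the combination arrays (adjusted p from 0.0573 to 0.16), with the 3′/5′ ratio added to the fit (adjusted p = 0.0744) or with only the arrays compared (adjusted p = 0.129). ATRA gave 0.05, with an interval from -0.10 to 0.20 (adjusted p = 0.662), and 0.23 after a second quantile normalization, which passed the test (adjusted p = 0.0166). ATRA exceeded VPA by 0.53 ± 0.07 (adjusted p = 2.93e-07) and the combination by 0.35 ± 0.07 (adjusted p = 0.000305). At 24 h both groups again lay below DMSO, but here the combination arrays were the lowest: 1748, 1889 and 2047 in DMSO, 1633, 1712 and 1549 in VPA, and 1486, 1525 and 1419 in the combination. The fall with the combination was 0.36 ± 0.07 (adjusted p = 0.000194), and that with VPA was 0.21 ± 0.07 (adjusted p = 0.0334). The VPA call at 24 h did not hold without DMSO replicate 2 or 3 or VPA replicate 1 or 3 (-0.22 to -0.16, adjusted p from 0.0677 to 0.15), nor after a second quantile normalization (-0.16, adjusted p = 0.1). At 6 h no treatment passed the test against DMSO, and the change with VPA at 72 h minus that at 6 h was -0.51 ± 0.10 (adjusted p = 0.00305).

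PRPH, peripherin, rose with time in culture and differed little between treatments at 72 h. Its RefSeq promoter window is shown because the gene rose with culture time in DMSO. The 250 bases before the start lie on the plus strand at chr12:49294897-49295146 of GRCh38.p14 and hold 1 TATAAA, in capitals, close to the start.
PRPH: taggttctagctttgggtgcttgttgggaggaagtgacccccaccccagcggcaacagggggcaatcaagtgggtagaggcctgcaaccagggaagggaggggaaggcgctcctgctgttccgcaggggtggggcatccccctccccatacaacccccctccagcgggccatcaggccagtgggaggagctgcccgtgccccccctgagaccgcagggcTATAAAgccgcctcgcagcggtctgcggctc
Neither GGGCGG nor GAGAGA nor AGGTCA was present in these letters. The DMSO arrays (213847_at) read 3037, 3287 and 3282 at 6 h, 4628, 4617 and 4754 at 24 h, and 5092 and 4993 at 72 h, with no overlap between the times. PRPH rose in DMSO by 0.54 ± 0.07 on the log2 scale from 6 to 24 h (limma, adjusted p = 1.17e-05) and by 0.66 ± 0.08 from 6 to 72 h, or 1.58-fold (adjusted p = 1.13e-06). At 72 h the ATRA arrays ranged from 4712 to 5074, the VPA arrays from 4975 to 5285 and the combination arrays from 5279 to 5919. None of these treatments passed the test against DMSO at 72 h, with intervals of -0.20 to 0.12, -0.14 to 0.18 and -0.01 to 0.31. The only call against DMSO was a fall of 0.20 ± 0.07 with the combination at 24 h (adjusted p = 0.0434), which did not pass without any 1 of the 3 DMSO arrays or without combination replicate 2 or 3 (adjusted p from 0.0702 to 0.172).

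MAP1B, the microtubule-associated protein of growing axons, rose with ATRA. Its RefSeq promoter window and that of GAP43 are shown because both genes rose at 72 h with ATRA and with the combination. Of the 2 MAP1B windows, the one printed is chr5:72107225-72107474, plus strand, GRCh38.p14, with motif matches in capitals (1 TATAAA, 3 GGGCGG and 1 GAGAGA, read from the opposite strand directly beside a GGGCGG match).
MAP1B: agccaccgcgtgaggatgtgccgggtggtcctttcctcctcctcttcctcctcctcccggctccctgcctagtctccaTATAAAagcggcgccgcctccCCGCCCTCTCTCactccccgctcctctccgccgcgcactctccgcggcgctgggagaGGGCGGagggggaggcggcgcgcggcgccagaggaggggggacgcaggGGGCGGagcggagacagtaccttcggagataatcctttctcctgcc
Like the INA window it was rich in G and C, at 70.0%. The brightest MAP1B probe set, 212233_at, read 4973 and 5047 in DMSO at 72 h, 6475, 6081 and 6360 in ATRA, 5093, 4874 and 5387 in VPA, and 7308, 7491 and 7617 in the combination. The 4 groups were ordered without overlap except for DMSO and VPA, which overlapped. MAP1B rose 1.26-fold with ATRA, or 0.33 ± 0.07 on the log2 scale (limma, adjusted p = 0.000681), and 1.49-fold with the combination, or 0.58 ± 0.07 (adjusted p = 2.05e-07). By the mean of both probe sets the rise with ATRA was 0.63 (adjusted p = 0.00117). With VPA the change was 0.03, with an interval from -0.12 to 0.18. The combination exceeded VPA by 0.55 ± 0.06 (adjusted p = 9.78e-08). It exceeded ATRA by 0.25 ± 0.06 (adjusted p = 0.0069). By the mean of both MAP1B probe sets the last difference was -0.059 (adjusted p = 0.791), and with only the arrays compared in the fit its adjusted p was 0.107.

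The second MAP1B probe set, 214577_at, was dim at 54.0 to 442 and more variable. At 72 h it read 188 and 200 in DMSO, 442, 316 and 362 in ATRA, and 322, 261 and 282 in the combination, so ATRA was the higher of the treated groups for this probe set. Its rise of 0.93 ± 0.29 with ATRA (limma, adjusted p = 0.0155) was lost without either DMSO array or ATRA replicate 1 (0.80 to 0.97, adjusted p from 0.0676 to 0.101) and was 1.47 with the 3′/5′ ratio added to the fit (adjusted p = 0.000133). The combination gave 0.56 ± 0.29 (adjusted p = 0.164). It passed with that ratio added (0.78, adjusted p = 0.0116) or with only the arrays compared (adjusted p = 0.00691). For this probe set the combination minus ATRA was -0.36 (adjusted p = 0.359), opposite in sign to 212233_at, and -0.69 with the ratio added, which passed (adjusted p = 0.0319). At 24 h, MAP1B by 212233_at was already above DMSO with ATRA, by 0.24 ± 0.06 (adjusted p = 0.00797). The ATRA arrays then read 5213, 5191 and 5475 against 4308, 4280 and 4871 in DMSO. By the mean of both probe sets that change was 0.10 and did not pass (adjusted p = 0.645). The combination at 24 h lay below ATRA by 0.21 for 212233_at (adjusted p = 0.0359), opposite to 72 h. That difference was lost by the mean of both probe sets (-0.18, adjusted p = 0.474) and with only the arrays compared (adjusted p = 0.17). At 6 h the sign of the ATRA change against DMSO was negative: ATRA arrays at 3368, 3557 and 3534 lay below DMSO at 3830, 3996 and 3760, a change of -0.15 that did not pass (adjusted p = 0.495). The change at 72 h minus that at 6 h was 0.48 ± 0.10 for ATRA (adjusted p = 0.000758) and 0.59 ± 0.10 for the combination (adjusted p = 4.34e-05).

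MAP2, the dendritic protein, moved early. Its single probe set, 210015_s_at, read 518, 515 and 563 in DMSO at 6 h, 400, 360 and 377 in VPA, 393, 412 and 401 in the combination, and 504, 568 and 512 in ATRA. Both groups with VPA lay below DMSO and ATRA without overlap. MAP2 fell by 0.49 ± 0.13 on the log2 scale with VPA (limma, adjusted p = 0.0112) and by 0.40 ± 0.13 with the combination (adjusted p = 0.039). The VPA call was lost without DMSO replicate 3 or VPA replicate 2 (-0.45 in both cases, adjusted p = 0.0576 and 0.0555), and the call for the combination was lost without any 1 of the 6 arrays compared (-0.43 to -0.36, adjusted p from 0.0715 to 0.142). At 24 h the ATRA arrays read 523, 506 and 578 and the DMSO arrays 246, 415 and 428, the 246 being the array that stood apart. The rise with ATRA was 0.60 ± 0.13 (adjusted p = 0.00104), and 0.34 without that array (adjusted p = 0.0145). In DMSO itself MAP2 fell by 0.59 ± 0.13 from 6 to 24 h (adjusted p = 0.00277), or by 0.34 without that array (adjusted p = 0.0377). By 72 h no treatment passed the test against DMSO, while the combination exceeded VPA by 0.40 ± 0.13 (adjusted p = 0.0198), a call lost without VPA replicate 1 or 2 or combination replicate 2 or 3 (0.34 to 0.40, adjusted p from 0.0519 to 0.103).

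MAPT, which encodes tau, has 4 probe sets, and they did not give equal answers. The brightest by mean log2 value, 203928_x_at, read 343, 338 and 348 in DMSO at 6 h and 565, 455 and 419 in VPA, without overlap. Its rise with VPA was 0.47 ± 0.14 on the log2 scale (limma, adjusted p = 0.0198) and was lost without any 1 of the DMSO arrays or without VPA replicate 1 (0.35 to 0.48, adjusted p from 0.0506 to 0.162). The probe set 203929_s_at gave the same direction with less spread: 203, 199 and 193 in DMSO against 324, 345 and 405 in VPA at 6 h. It rose by 0.84 ± 0.13 with VPA at 6 h (adjusted p = 3.09e-05), by 0.71 ± 0.13 at 24 h (adjusted p = 0.000281, or 0.0675 with only the arrays compared) and by 0.67 ± 0.14 at 72 h (adjusted p = 0.00259). The call at 72 h did not hold without DMSO replicate 2 (0.66, adjusted p = 0.0559). The third, 206401_s_at, rose with VPA at 6 h by 0.68 ± 0.19 (adjusted p = 0.0202), which was lost without DMSO replicate 2 or 3 or VPA replicate 1 or 2 (adjusted p from 0.0743 to 0.0938). The fourth, 203930_s_at, read 19.3 to 46.6 and lay near the lower quartile, so it was not read on its own. It does enter the mean of the 4 probe sets, which is also used below. That mean rose with VPA at 24 h by 0.39 (adjusted p = 0.00285), where 203928_x_at gave 0.39 and did not pass (adjusted p = 0.0582). With the combination at 6 h the mean rose by 0.42 (adjusted p = 0.00101), where 203928_x_at gave 0.30 (adjusted p = 0.181).

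With ATRA, the MAPT probe sets differed in the main fit in which time passed the test. At 24 h 203928_x_at read 288, 219 and 286 in ATRA against 413, 451 and 315 in DMSO, a fall of 0.56 ± 0.14 (limma, adjusted p = 0.00298) with no overlap. The changes of 203929_s_at and 206401_s_at at 24 h were -0.20 and -0.39 and did not pass (adjusted p = 0.329 and 0.189), and the mean of the 4 probe sets gave -0.29 (adjusted p = 0.0166). Without DMSO replicate 1 at 24 h, 206401_s_at gave -0.63 and passed (adjusted p = 0.0248). It also passed with the 3′/5′ ratio added to the fit (-0.48, adjusted p = 0.0282). After a second quantile normalization both passed (203929_s_at at -0.35, adjusted p = 0.0476, and 206401_s_at at -0.53, adjusted p = 0.038). With only the arrays compared, the call on 203928_x_at was lost (adjusted p = 0.107). The probe set 203928_x_at was lower in ATRA than in VPA by 0.95 ± 0.14 at 24 h (adjusted p = 2.66e-06). At 72 h it read 415 and 413 in DMSO, 528, 494 and 470 in ATRA, 465, 486 and 516 in VPA, and 568, 686 and 532 in the combination. All treated arrays were above DMSO, but only the combination passed for this probe set (ATRA at 0.26, adjusted p = 0.195), at 0.52 ± 0.15 or 1.43-fold (adjusted p = 0.00842), and this was lost without DMSO replicate 1 or 2 or combination replicate 2 (0.41 to 0.52, adjusted p from 0.0542 to 0.0583). By the mean of the 4 probe sets, ATRA and VPA also passed at 72 h (0.37 and 0.46, adjusted p = 0.0042 and 0.00246). By that mean the combination exceeded ATRA by 0.33 (adjusted p = 0.00704) and VPA by 0.24 (adjusted p = 0.0403). By 203929_s_at the DMSO arrays at 72 h read 260 and 255, the ATRA arrays 442, 391 and 445, the VPA arrays 391, 390 and 454, and the combination arrays 551, 541 and 558. That probe set rose in all treated groups at 72 h, by 0.72 ± 0.14 with ATRA (adjusted p = 0.000224) and by 1.09 ± 0.14 with the combination (adjusted p = 4.05e-07). The combination exceeded ATRA by 0.37 ± 0.13 (adjusted p = 0.0398) for 203929_s_at, a call lost without ATRA replicate 1 or 2 or any 1 of the combination arrays (adjusted p from 0.0653 to 0.148) or after a second quantile normalization (0.28, adjusted p = 0.116). It exceeded VPA by 0.42 ± 0.13 (adjusted p = 0.0141), lost without VPA replicate 1 or 2 (adjusted p = 0.0612 and 0.0618).

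**Figure D2:**
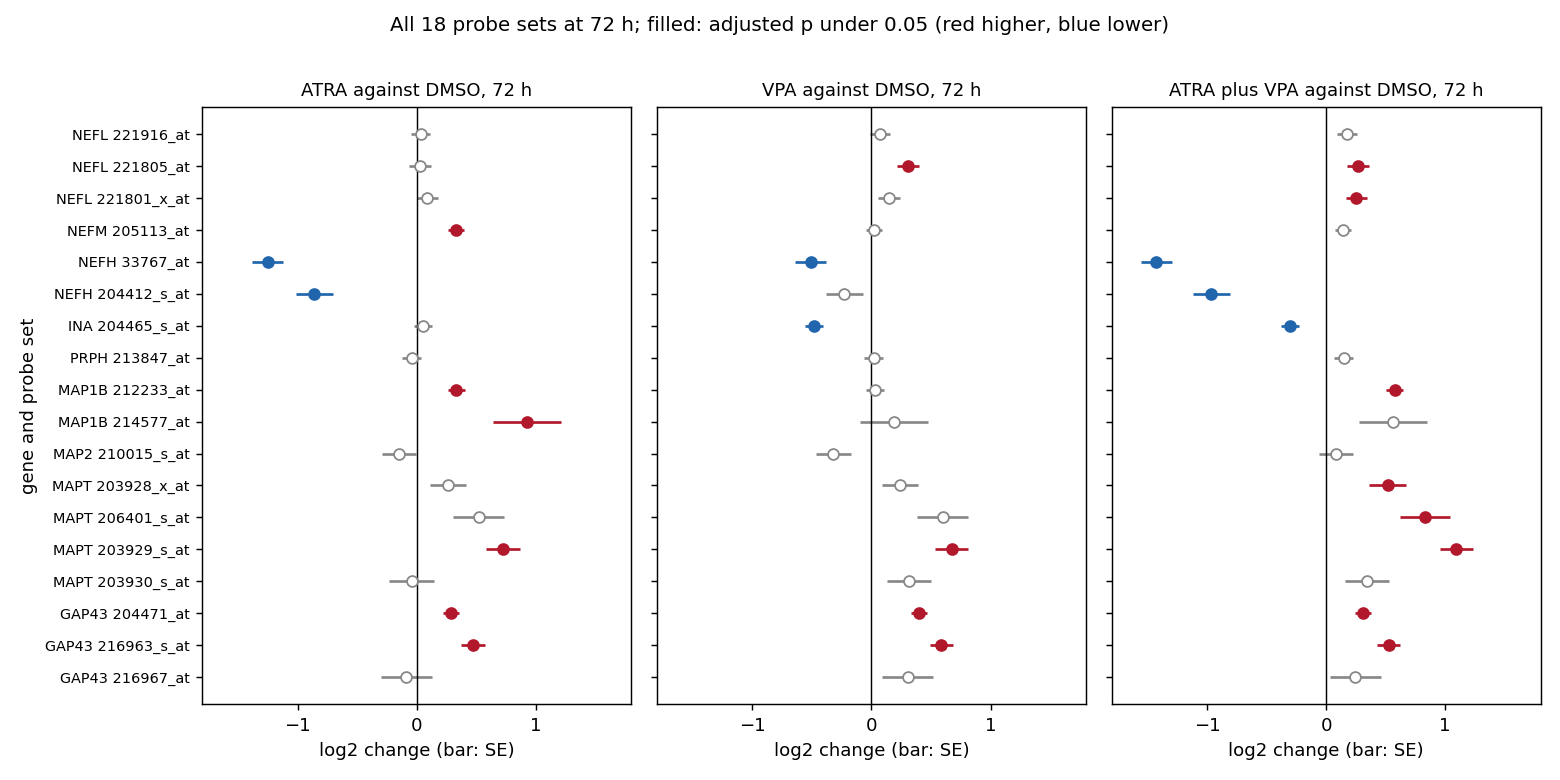
log2 change against DMSO at 72 h of all 18 probe sets, with a panel for each treatment; points are fitted changes, horizontal bars their standard errors, and filled points passed an adjusted p of 0.05 (red higher, blue lower). The NEFH probe sets lie at -1.25 and -0.86 with ATRA, and the MAPT probe sets range from 0.34 to 1.09 with the combination.

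GAP43, the growth cone protein, was higher in every treated group at 72 h. Its RefSeq promoter window, chr3:115623260-115623509 on the plus strand of GRCh38.p14, is printed with its GAGAGA matches in capitals, overlapping matches being merged into 5 runs.
GAP43: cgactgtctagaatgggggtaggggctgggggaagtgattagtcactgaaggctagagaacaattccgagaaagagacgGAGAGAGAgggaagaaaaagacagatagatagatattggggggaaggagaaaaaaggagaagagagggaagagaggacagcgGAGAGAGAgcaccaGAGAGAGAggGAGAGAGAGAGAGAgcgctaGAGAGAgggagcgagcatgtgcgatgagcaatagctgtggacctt
Purines made up 78.4% of this window, a share that only 0.0968% of the 35116 windows reached, and it held neither TATAAA nor GGGCGG nor AGGTCA. The brightest GAP43 probe set, 204471_at, read 2133 and 2206 in DMSO at 72 h, 2743, 2473 and 2756 in ATRA, 2861, 2868 and 2833 in VPA, and 2723, 2647 and 2703 in the combination. All 9 treated arrays exceeded both DMSO arrays. GAP43 rose by 0.29 ± 0.07 on the log2 scale with ATRA (limma, adjusted p = 0.00123), by 0.40 ± 0.07 with VPA (adjusted p = 0.000187) and by 0.31 ± 0.07 with the combination (adjusted p = 0.000497). These correspond to 1.22-fold, 1.32-fold and 1.24-fold. The probe set 216963_s_at rose by 0.47 ± 0.10, 0.59 ± 0.10 and 0.53 ± 0.10 (adjusted p = 0.000525, 0.000209 and 0.000114), while the third, 216967_at, was dim at 23.8 to 66.0 and passed the test with no treatment at 72 h. For ATRA the call on 204471_at was lost with only the arrays compared in the fit (adjusted p = 0.0852) and by the mean of the 3 probe sets (0.22, adjusted p = 0.0764), whereas a second quantile normalization gave 0.47 (adjusted p = 7.03e-06).

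The gains of the single agents did not add for GAP43. The interaction, the combination change minus the sum of both single-agent changes, was -0.38 ± 0.09 on the log2 scale at 72 h (limma, adjusted p = 0.0232), and -0.53 ± 0.13 by 216963_s_at (adjusted p = 0.039). The first call was lost without either DMSO array, VPA replicate 2, ATRA replicate 1 or combination replicate 2 (-0.40 to -0.35, adjusted p from 0.053 to 0.151). The second was lost without any 1 of 9 of the 11 arrays (-0.61 to -0.45, adjusted p from 0.0532 to 0.245). By the mean of the 3 probe sets the interaction was -0.29 (adjusted p = 0.238), and with only the arrays compared it did not pass for either probe set (adjusted p = 0.115 and 0.0734). The combination differed from VPA by -0.08 (interval -0.21 to 0.04) and from ATRA by 0.02 (interval -0.10 to 0.14).

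GAP43 differed from DMSO in opposite directions with ATRA and with VPA at 24 h. The DMSO arrays read 1989, 1986 and 1976, the ATRA arrays 1579, 1678 and 1653, the VPA arrays 2492, 2277 and 2410, and the combination arrays 2085, 1961 and 1895. The 3 ATRA arrays were below and the 3 VPA arrays above all DMSO arrays, and the combination arrays fell around DMSO. GAP43 fell by 0.28 ± 0.06 with ATRA (limma, adjusted p = 0.00109) and rose by 0.27 ± 0.06 with VPA (adjusted p = 0.00268). By the mean of the 3 probe sets neither passed (-0.22, adjusted p = 0.0735, and 0.18, adjusted p = 0.177). With only the arrays compared, both calls were lost (adjusted p = 0.117 and 0.224). By 216963_s_at the ATRA mean was 1375 against 1567 in DMSO and did not pass. That probe set rose with VPA by 0.40 (adjusted p = 0.00276, or 0.107 with only the arrays compared). ATRA minus VPA was -0.55 ± 0.06 at 24 h (adjusted p = 3.39e-08), and -0.59 ± 0.09 by 216963_s_at (adjusted p = 7.04e-06). The combination change at 24 h was -0.004, with an interval from -0.13 to 0.12. ATRA at 24 h was the lowest of the 12 groups and VPA at 72 h the highest. Of the groups between them, the 6 steps from the combination at 24 h up to VPA at 6 h were each at most 0.06 on the log2 scale, no larger than the standard error of a difference, and so were not told apart from their neighbours.

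**Figure D3:**
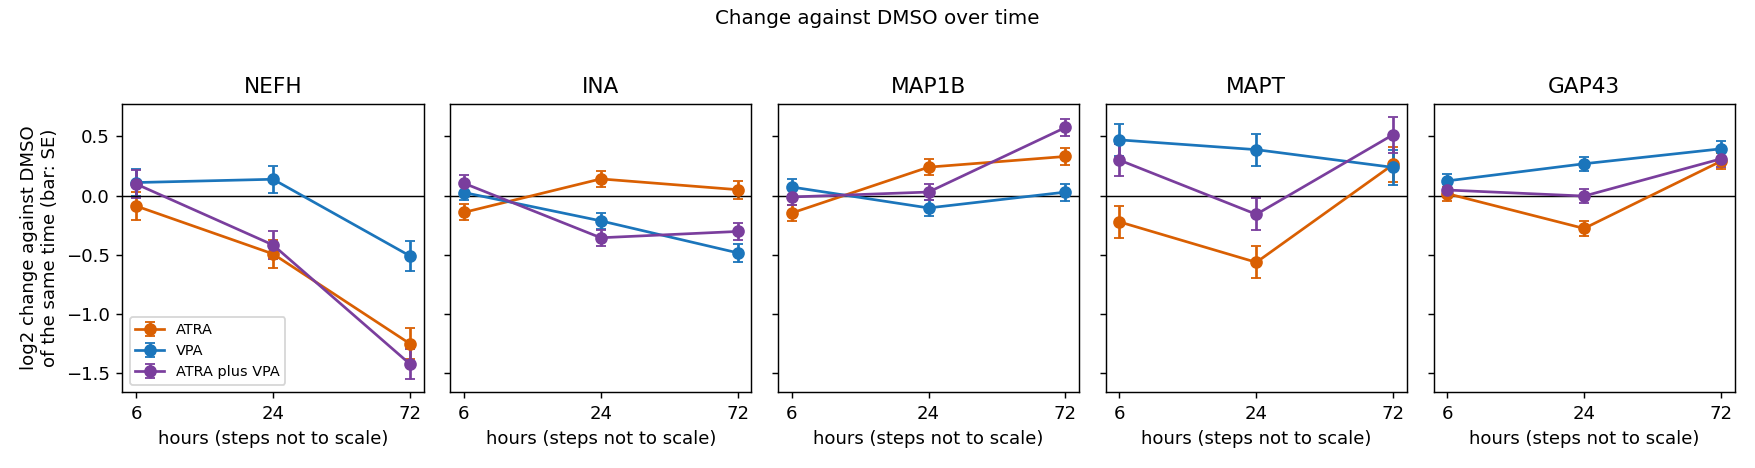
log2 change against DMSO of the same time for NEFH, INA, MAP1B, MAPT and GAP43 (brightest probe sets) at 6, 24 and 72 h; points are fitted changes, bars standard errors, and the steps on the time axis are not to scale. GAP43 goes from -0.28 at 24 h to 0.29 at 72 h with ATRA, while NEFH descends to -1.25 with ATRA and -1.42 with the combination.

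Counted over the 9 genes, limma called none with ATRA at 6 h, when 1.62% of all 11940 genes were called and 973 had an unadjusted p under 0.05. At 24 h it called 6 (MAP1B and MAP2 higher, NEFL, NEFH, MAPT and GAP43 lower), where 18.5% of all genes were called. At 72 h it called 4 (NEFM, MAP1B and GAP43 higher, NEFH lower), against 30.9% of all genes. The median change of the members at 72 h was 0.05, and that of all genes 0.00. With 9 genes these counts are descriptions. VPA called 2 at 6 h (MAPT higher, MAP2 lower) with a background of 11.2%, 2 at 24 h (GAP43 higher, INA lower) with 12.2%, and 3 at 72 h (GAP43 higher, NEFH and INA lower) with 6.67%. The combination called 1 at 6 h (MAP2 lower; 11.6% of all genes), 4 at 24 h (NEFL, NEFH, INA and PRPH lower; 21.2%) and 5 at 72 h (MAP1B, MAPT and GAP43 higher, NEFH and INA lower; 31.5%). The 3 treatments shared the DMSO arrays of each time. When only the arrays compared entered the fit, none of the 9 genes was called at 24 h with ATRA, VPA or the combination. Without DMSO replicate 1 at 24 h, the counts were 6, 2 and 3.

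**Figure D4:**
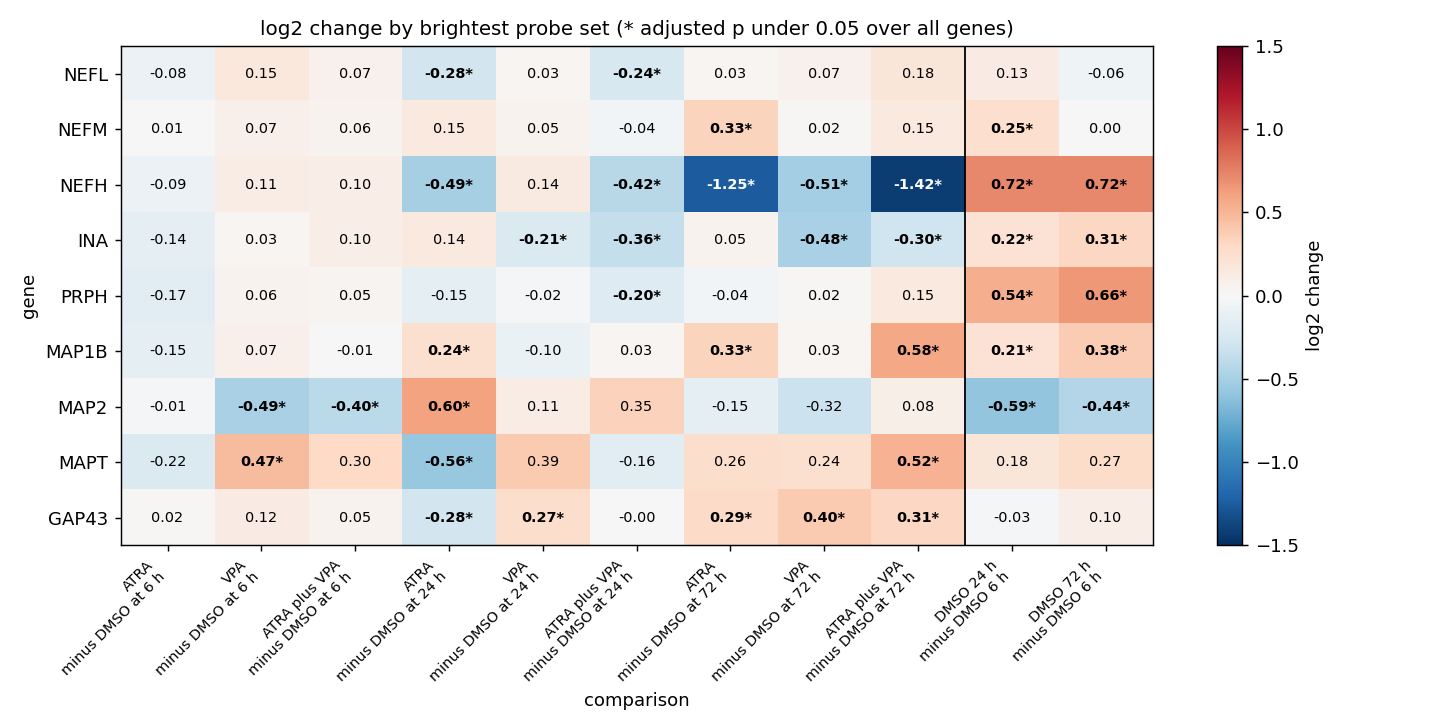
log2 change of the 9 genes by their brightest probe set in 9 comparisons of a treatment with DMSO and 2 comparisons between times in DMSO (right of the line); colour and number give the change, and an asterisk marks an adjusted p under 0.05 over all genes. NEFH carries the lowest values, -1.25 and -1.42, and PRPH stands out only in the DMSO columns at 0.54 and 0.66.

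Direct comparisons between the treatments separated the members further. ATRA minus VPA called 5 of 9 at 6 h (15.6% of all genes), 7 at 24 h (26.3%) and 4 at 72 h (31.9%). At 24 h INA, MAP1B and MAP2 were higher in ATRA, and NEFL, NEFH, MAPT and GAP43 higher in VPA. Of these, NEFL did not pass when its probe sets were averaged (-0.15, adjusted p = 0.0787), nor MAP2 with the 3′/5′ ratio added to the fit (0.41, adjusted p = 0.0605). At 72 h NEFM, INA and MAP1B were higher in ATRA and NEFH was higher in VPA. Adding VPA to ATRA called 4 genes at 6 h (12% of all genes), 4 at 24 h (9.49%) and 3 at 72 h (20.8%), and INA was higher with VPA added at 6 h and lower at 24 and 72 h. Its value at 6 h was 0.25 ± 0.07 (limma, adjusted p = 0.0127), lost without ATRA replicate 1 or combination replicate 2 (0.22 and 0.23, adjusted p = 0.0716 and 0.0564) or with only the arrays compared (adjusted p = 0.0648). At 24 h it was -0.50 ± 0.07 (adjusted p = 5.14e-06). Adding ATRA to VPA called none at 6 h (0.57% of all genes by limma, with 650 at an unadjusted p under 0.05), 4 at 24 h (NEFL, NEFH, MAPT and GAP43 lower; 11.9%) and 4 at 72 h (INA, MAP1B and MAP2 higher, NEFH lower; 25.7%). The interaction called none of the members at 6 h, when limma called 0% of all genes and 282 had an unadjusted p under 0.05, none at 24 h (0.737%, with 1168 at an unadjusted p under 0.05) and 1, GAP43, at 72 h (1.92%).

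Several members moved with time in DMSO alone. Between 6 and 24 h, 5 genes rose (NEFM, NEFH, INA, PRPH and MAP1B) and MAP2 fell, with 15.2% of all genes called. The MAP1B rise of 0.21 (limma, adjusted p = 0.0243) turned to -0.017 by the mean of both probe sets (adjusted p = 0.949), and with only the arrays compared PRPH alone of the 6 passed. Between 6 and 72 h, 4 rose (NEFH, INA, PRPH and MAP1B) and MAP2 fell, with 10.6% of all genes called. MAP1B rose by 0.38 ± 0.07 on the log2 scale (limma, adjusted p = 0.000833) and INA by 0.31 ± 0.075 (adjusted p = 0.00704) over this span. By the mean of both MAP1B probe sets the rise was 0.38 and did not pass (adjusted p = 0.0866). The INA call was lost without either DMSO array at 72 h (0.30 and 0.31, adjusted p = 0.0811 and 0.0645), and the MAP2 call was lost without any 1 of the 5 arrays (-0.48 to -0.40, adjusted p from 0.0755 to 0.25). At 24 h the calls for INA and MAP1B did not pass without DMSO replicate 1 or 3 at 6 h or replicate 3 at 24 h (adjusted p from 0.059 to 0.116). A sign of RNA or labelling quality moved with time too: the log2 ratio of 3′ to 5′ signal of the GAPDH and ACTB control probe sets was 0.27 ± 0.09 (SD, n = 3) at 6 h, 1.05 ± 0.26 (n = 3) at 24 h and 1.06 ± 0.17 (n = 2) at 72 h in DMSO. With this ratio as a covariate 2 of the 6 calls at 24 h (NEFH and PRPH) and 3 of the 5 at 72 h (NEFH, PRPH and MAP1B) still passed. At 72 h the ratio was 1.82 ± 0.17 in ATRA, 1.09 ± 0.16 in VPA and 1.36 ± 0.07 in the combination (n = 3 each). With it as a covariate, the ATRA changes at 72 h were -1.40 for NEFH (adjusted p = 9.58e-09), 0.31 for MAP1B (adjusted p = 0.00681), 0.28 for GAP43 (adjusted p = 0.009) and 0.27 for NEFM (adjusted p = 0.00858), and all 4 still passed.

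The change against DMSO was itself compared between 6 and 72 h. For ATRA 4 genes passed (NEFM, MAP1B and GAP43 upward, NEFH downward; 17.3% of all genes), for VPA 1 (INA downward; 2%) and for the combination 4 (MAP1B and GAP43 upward, NEFH and INA downward; 17%). With the 3′/5′ ratio added to the fit, NEFH and MAP1B still passed for ATRA, and NEFM (0.25, adjusted p = 0.0917) and GAP43 (0.26, adjusted p = 0.0943) did not.

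Across the 12 group means, MAPT and GAP43 varied most alike (Pearson r = 0.87), followed by PRPH with MAP1B (0.83) and NEFL with MAPT (0.71). MAP2 ran opposite to MAPT (-0.76) and to GAP43 (-0.69). These correlations have n = 12 groups that share treatments, times and the DMSO controls, and they are descriptions. For the 3 genes whose means spanned at least 1 log2 unit, the most similar of the 2375 other genes that did so were found in the same way. NEFH was most like LAGE3 (r = 0.93), CDC20 (0.90), an activator of the anaphase-promoting complex, and MCMBP (0.90), a binding protein of the replicative helicase. MAP1B was most like CX3CL1 (0.96), a membrane-bound chemokine, ZNF609 (0.96) and PIK3IP1 (0.96), a negative regulator of phosphoinositide 3-kinase. MAPT was most like KBTBD11 (0.91), EPB41L1 (0.90), a membrane skeleton protein, and MSX1 (0.895), a homeobox factor.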

How the data were processed

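Each of the 35 RNA samples was hybridised to 1 Affymetrix U133A array (the early access version of the HT format). The authors deposited 1 intensity per probe set on a linear scale, made with robust multi-array averaging (RMA) per the submitters' processing notes. No aligner applies to arrays. Intensities were taken as log2(intensity + 1), and folds are ratios of intensity + 1. Probe sets with several symbols (125) or none (3292) and 98 control probe sets stayed out of the tests. The main analysis took the brightest probe set of each gene by mean log2 value (11940 genes), and other probe sets of the members were tested among 19415. limma 3.58.1 in R 4.3.3 fitted 12 group means (lmFit, eBayes, 23 residual degrees of freedom) and 26 contrasts, with Benjamini-Hochberg adjustment within each contrast and a threshold of 0.05. Intervals are 95%. Scripts were tested on simulated data. Python 3.11.15, pandas 2.3.3 and matplotlib 3.10.9 did the rest.

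The members and all gene lists were chosen with earlier results of these data known. Named were all members and their probe sets, up to 3 genes of each context list with the largest absolute change past the threshold against DMSO at 72 h, and, for members whose group means spanned at least 1 log2 unit, the 3 genes most like them. Alternatives were a replicate block, only the arrays compared, the mean of all probe sets, a pseudocount of 32, the dimmest genes left out, a second quantile normalization, the 3′/5′ ratio as a covariate, and each array left out in turn. Same-numbered samples mostly did not deviate together: of 187 pairs, 39 had a correlation over 0.1, with a median of -0.0053 and a range from -0.33 to 0.51. The pairs were pooled over treatments and times, so pairing within a time could not be judged from them. Precision is limited by the number of arrays.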

Additional observations from a re-analysis of the deposited data

Results flagged for a closer look

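The interaction of ATRA and VPA on GAP43 at 72 h was tested directly and differed from 0 in limma. It was -0.38 (adjusted p = 0.0232) by 204471_at and -0.53 (adjusted p = 0.039) by 216963_s_at, so the combination reached less than the sum of both single-agent changes. Both calls were lost in some leave-one-out fits, as given with the GAP43 results.

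Several effects against DMSO differed between 6 and 72 h by the test of the difference itself. For ATRA the change at 72 h minus that at 6 h was -1.16 for NEFH (limma, adjusted p = 1.38e-05), 0.48 for MAP1B (adjusted p = 0.000758), 0.32 for NEFM (adjusted p = 0.0127) and 0.27 for GAP43 (adjusted p = 0.0342). Among the other probe sets it was 0.92 for MAPT 203929_s_at (adjusted p = 0.00103), 0.50 for GAP43 216963_s_at (adjusted p = 0.01) and -0.63 for NEFH 204412_s_at (adjusted p = 0.0428). With the 3′/5′ ratio added to the fit, the differences for NEFM (0.25, adjusted p = 0.0917), GAP43 204471_at (0.26, adjusted p = 0.0943) and NEFH 204412_s_at (-0.56, adjusted p = 0.149) no longer passed. For GAP43 the mean of the probe sets gave 0.15 (adjusted p = 0.473) and a second quantile normalization 0.45 (adjusted p = 0.00108), for MAP1B the mean gave 0.74 (adjusted p = 0.00782), and NEFH 204412_s_at did not pass after that normalization (-0.51, adjusted p = 0.0758). With only the arrays compared, GAP43 204471_at had an adjusted p of 0.106. The NEFM call was lost without DMSO replicate 2 at 72 h (0.28, adjusted p = 0.0844), and that of GAP43 216963_s_at without DMSO replicate 1 at 72 h (0.42, adjusted p = 0.0835). Those of GAP43 204471_at and NEFH 204412_s_at were lost in 8 and 10 leave-one-out fits (adjusted p from 0.0525 to 0.136 and from 0.0612 to 0.165).

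For VPA, the same difference passed for INA, at -0.51 (limma, adjusted p = 0.00305). For the combination it was -1.52 for NEFH (adjusted p = 1.28e-07), 0.59 for MAP1B (adjusted p = 4.34e-05), -0.41 for INA (adjusted p = 0.00402) and 0.26 for GAP43 (adjusted p = 0.0418). By the other probe sets it was -0.81 for NEFH 204412_s_at (adjusted p = 0.00798), 0.41 for GAP43 216963_s_at (adjusted p = 0.034) and 0.59 for MAPT 203929_s_at (adjusted p = 0.0348). The call on NEFH 204412_s_at was lost without DMSO replicate 1 at 72 h (-0.74, adjusted p = 0.0566). Those of GAP43 204471_at, GAP43 216963_s_at and MAPT 203929_s_at were lost in 10, 6 and 9 leave-one-out fits (highest adjusted p = 0.161, 0.208 and 0.118). For the combination, GAP43 204471_at also did not pass by the mean of the probe sets (0.27, adjusted p = 0.166), and with only the arrays compared neither GAP43 204471_at (adjusted p = 0.0948) nor 216963_s_at (adjusted p = 0.121) passed.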

How the results depend on the processing

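Counts of members called out of 9 are given here with the main count after "from". The mean of all probe sets moved ATRA against DMSO at 24 h from 6 to 3, the combination against ATRA from 4 to 2 at 24 h and from 3 to 5 at 72 h, the combination against DMSO at 6 h from 1 to 2, and the interaction at 72 h from 1 to 0. It also turned the sign for MAP1B, to -0.059 for the combination minus ATRA at 72 h and to -0.017 for DMSO at 24 h minus 6 h. With only the arrays compared in the fit, which leaves fewer samples, the counts at 24 h against DMSO went to 0 for ATRA (from 6), VPA (from 2) and the combination (from 4). The same setting gave 3 for ATRA minus VPA at 6 h (from 5), 2 and 1 for the combination minus ATRA at 6 and 24 h (from 4 each), 1 at 72 h (from 3), 2 for the combination minus VPA at 24 h (from 4), 1 for DMSO at 24 h minus 6 h (from 6) and 0 for the interaction at 72 h (from 1). The 3′/5′ covariate gave 2 for the difference of the ATRA effect between 72 and 6 h (from 4), and 2 and 3 for DMSO at 24 and 72 h minus 6 h (from 6 and 5). The difference of the VPA effect between 72 and 6 h went from 1 to 2 with the covariate, with the dimmest genes left out, with only the arrays compared and with a second quantile normalization, and to 3 with a pseudocount of 32. The second quantile normalization moved VPA against DMSO at 24 h from 2 to 1. The cause of these shifts was not tested.

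Leaving out 1 array at a time gave, against DMSO, 0 to 0, 6 to 8 and 4 to 4 members for ATRA at 6, 24 and 72 h, 0 to 2, 1 to 3 and 2 to 3 for VPA, and 0 to 0, 2 to 4 and 4 to 5 for the combination. ATRA minus VPA gave 2 to 4, 7 to 7 and 4 to 4, the combination minus ATRA 1 to 2, 2 to 3 and 2 to 3, and the combination minus VPA 0 to 0, 3 to 4 and 2 to 4. The interaction at 72 h gave 0 to 1, DMSO at 24 and 72 h minus 6 h gave 4 to 6 and 3 to 4, and the effects at 72 h minus 6 h gave 2 to 4 for ATRA, 1 to 2 for VPA and 3 to 4 for the combination. No sign of a called value turned in these fits.

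The labels do not say whether the replicate numbers pair the samples, and the check of same-numbered samples could not settle it within a time. With the replicate block, MAP2 in the combination at 24 h passed (0.35, adjusted p = 0.0422), and 3 calls were lost: NEFM in the combination minus ATRA at 24 h (adjusted p = 0.0539), NEFL 221805_at with VPA at 72 h (0.30, adjusted p = 0.0725) and MAP2 in DMSO at 72 h minus 6 h (-0.40, adjusted p = 0.0649).

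A second quantile normalization moved the share of called genes that were higher, over all genes, from 67.5 to 47% for ATRA, 79.5 to 68.8% for VPA and 63.3 to 49.6% for the combination at 24 h, and from 34.6 to 45.9% for ATRA at 72 h. At 72 h it moved from 70.1 to 53.2% for the combination minus ATRA, 37.2 to 47.9% for ATRA minus VPA and 68.1 to 50.4% for the interaction. In DMSO it moved from 34.2 to 61.3% and 48 to 58.9% at 24 and 72 h, and for the ATRA effect at 72 h minus 6 h from 32.1 to 48.7%. Dim probe sets and groups of 2 or 3 arrays limit what can be told apart.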

Other observations

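Other genes of the same machinery were read from 6 context lists at 72 h, each to be read beside the share of all genes called, which was 30.9% for ATRA, 6.67% for VPA and 31.5% for the combination. Of 16 axonal motors and linkers measured, 6 rose and none fell with ATRA, 2 rose with VPA and 9 rose with the combination. KIF5C, a kinesin heavy chain of neurons, rose by 1.45 ± 0.13 (SE) on the log2 scale with ATRA (limma, adjusted p = 2.79e-10), 0.69 ± 0.13 with VPA (adjusted p = 0.000414) and 1.89 ± 0.13 with the combination (adjusted p = 5.63e-13). KIF1B, a kinesin of vesicle transport, rose by 1.04 ± 0.15 with ATRA (adjusted p = 2.98e-06), and the linker DST by 0.56 ± 0.12 (adjusted p = 0.00082). Of 9 growth cone relatives of GAP43 measured, 5 rose and 1 fell with ATRA, 3 rose with VPA, and 5 rose and 1 fell with the combination. GPM6B, a membrane glycoprotein, rose in all 3, by 0.84, 0.80 and 1.52. The membrane protein PALM rose by 0.97 with ATRA and 1.37 with the combination, and ELAVL4, a neuronal RNA-binding protein, by 0.98 and 1.27.

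Of 13 tubulins measured, 4 rose and 3 fell with ATRA, none passed with VPA, and 5 rose and 4 fell with the combination. TUBB2B, a neuronal beta tubulin, rose by 1.03 ± 0.09 with ATRA (limma, adjusted p = 1.67e-10) and stood at 0.01 with VPA, while delta tubulin (TUBD1) fell by 1.11 ± 0.18 with ATRA (adjusted p = 1.24e-05), and TUBB4A rose by 1.15 with the combination. Of 15 other microtubule-associated proteins, 3 rose and 1 fell with ATRA, 1 rose with VPA, and 5 rose and 1 fell with the combination. MAP7 rose by 1.11 ± 0.16 with VPA (adjusted p = 1.42e-05) and stood at 0.03 with ATRA, CLASP2 rose by 0.86 with ATRA and 1.17 with the combination, and MAP1LC3B by 0.52 and 0.99. Of 13 other intermediate filament genes, 1 rose and 2 fell with ATRA, 1 rose and 1 fell with VPA, and 4 rose and 2 fell with the combination. The lamin LMNB2 fell by 1.29 ± 0.17 on the log2 scale with ATRA (adjusted p = 7.32e-07), the keratin KRT18 rose by 1.78 with the combination, and KRT19 rose by 1.35 with ATRA and fell by 0.77 with VPA. Of 14 kinases and phosphatase subunits acting on these proteins, 3 fell with ATRA, none passed with VPA, and 2 rose and 1 fell with the combination. MARK4 and TTBK2 rose by 0.76 and 0.52 with the combination, and PPP2R2A fell by 0.75 with ATRA and 0.59 with the combination.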
